A study of Mus musculus with 4 samples.

Results

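The 9 genes described here encode receptors of the TNF receptor superfamily that are carried by T cells. They are Tnfrsf4 (OX40), Tnfrsf18 (GITR), Tnfrsf9 (4-1BB), Tnfrsf1a (TNFR1), Tnfrsf1b (TNFR2), Tnfrsf8 (CD30), Tnfrsf25 (DR3), Cd27 and Fas. They were chosen by name from a larger family, so other receptors of it were measured too, and all 9 were found among the 47729 genes of the count table. All 9 passed the filter on low counts, which left 13732 genes to test. RNA was sequenced from cultures of induced regulatory T (iTreg) cells made from CD4 T cells of C57BL/6 mouse spleen, in 2 groups of 2 libraries each. Mock cultures received PBS and FeSO4 cultures received 50 µM ferrous sulfate, both for 4 days. The medium of every culture contained IL-2 at 100 U/mL, TGF-β at 5 ng/mL and blocking antibodies to IFN-γ and IL-4 at 5 µg/mL apiece, and the study's methods add stimulation through CD3 and CD28. The question was which transcripts change when iTreg cells are given iron. Mice were in general 6 to 8 weeks old, and no sort for Foxp3 is described for these cultures, so each library is a bulk measurement of a whole culture.

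Receptors of this family are single-pass membrane proteins that bind trimeric ligands of the TNF superfamily. One branch (OX40, GITR, 4-1BB, CD27, CD30 and TNFR2) binds TRAF adaptors and costimulates T cells through NF-κB. The other branch (TNFR1, DR3 and Fas) carries a death domain in its cytoplasmic tail, through which it recruits TRADD or FADD. Regulatory T cells are known for high GITR, OX40 and TNFR2, and signals through OX40, GITR, 4-1BB, DR3 and TNFR2 are known to act on their number or function.

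Of the 9 receptor genes, 6 lie on mouse chromosome 4 (Tnfrsf4, Tnfrsf18, Tnfrsf9, Tnfrsf1b, Tnfrsf8 and Tnfrsf25), Tnfrsf1a and Cd27 lie on chromosome 6, and Fas lies on chromosome 19. In RefSeq positions on GRCm38.p6, Tnfrsf4 (chr4:156013595-156016613) and Tnfrsf18 (chr4:156026322-156028894) are neighbours on the plus strand, and Tnfrsf1b (chr4:145212368-145246870) and Tnfrsf8 (chr4:145267132-145315164) are neighbours on the minus strand. Tnfrsf25 lies at chr4:152115528-152120119 on the plus strand, and Cd27 at chr6:125232620-125237136 on the minus strand. In the GENCODE M1 gene models, 27.2% of the exon bases of Tnfrsf18 overlap Gm16008 on the opposite strand, so its counts are uncertain where the counting did not use strand. None of the other 8 overlapped the exons of another gene.

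The bases just before the start sites are shown for 4 receptors, because Cd27 had the largest change, Tnfrsf1a and Tnfrsf1b encode the receptors of TNF itself, and Tnfrsf9 held the densest group of motifs. They are RefSeq sequences (GRCm38.p6), written 5′ to 3′ on the strand of the gene and ending before the outermost annotated start, except that the Tnfrsf9 stretch ends at the second of its start sites. Capitals mark matches to 3 motifs that were searched on both strands in the 250 bases before each start site, namely the NF-κB (κB) consensus, TGANTCA (the AP-1 motif) and TTCNNNGAA (the STAT motif).
Cd27 (chr6:125237137-125237277, minus strand): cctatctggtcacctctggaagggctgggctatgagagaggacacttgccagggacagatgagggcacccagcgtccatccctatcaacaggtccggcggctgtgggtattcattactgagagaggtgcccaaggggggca
Tnfrsf1a (chr6:125349473-125349722, plus strand): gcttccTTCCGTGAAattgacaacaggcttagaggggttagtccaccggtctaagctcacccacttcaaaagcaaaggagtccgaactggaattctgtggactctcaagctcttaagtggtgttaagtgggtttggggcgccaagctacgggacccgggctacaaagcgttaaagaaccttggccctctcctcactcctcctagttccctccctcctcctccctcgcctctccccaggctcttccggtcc
Tnfrsf1b (chr4:145246871-145247120, minus strand): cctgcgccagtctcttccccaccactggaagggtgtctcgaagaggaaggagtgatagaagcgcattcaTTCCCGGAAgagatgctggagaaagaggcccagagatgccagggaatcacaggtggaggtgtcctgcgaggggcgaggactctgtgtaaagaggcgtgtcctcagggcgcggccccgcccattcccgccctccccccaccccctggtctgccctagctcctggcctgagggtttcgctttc
Tnfrsf9 (chr4:150927939-150927998, plus strand): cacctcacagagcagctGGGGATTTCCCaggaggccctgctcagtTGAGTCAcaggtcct

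The STAT motif was present before a start site of 6 of the 9 receptors (Tnfrsf18, Tnfrsf9, Tnfrsf1a, Tnfrsf1b, Tnfrsf25 and Fas), and in 7.02% of all 32851 promoters of the same length. The AP-1 motif was present for 3 of the 9 (Tnfrsf9, Tnfrsf8 and Fas), against 6.75% of all promoters. The κB consensus was present for 2 of the 9 (Tnfrsf9 and Tnfrsf8), against 3.9%. Tnfrsf9 and Tnfrsf25 have 2 listed start sites each, so the 9 receptors were searched over 11 windows. The background shares are per window, so they are not fully alike to these counts per gene. All matches of Tnfrsf9 and Tnfrsf25 lay before the second start site. In the Tnfrsf9 stretch the κB match is made of 2 overlapping ones and stands upstream of the AP-1 match. Cd27 and Tnfrsf4 held none of the 3 in their windows, which says only that these letters are not there.

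Libraries held between 35183187 and 40859178 reads in gene rows. A count of 3, the limit that a count of 0 allows, was worth 0.0717 to 0.0875 CPM (read counts scaled by library size and its TMM factor), so 8 of the 9 receptors were measured far above it. The CD4 T cell markers Cd4, Cd3e, Cd3d, Cd3g and Trac were high in every library, with a summed level of 2020 and 2140 CPM in Mock, against 2450 and 2510 CPM in FeSO4, and 3 of the 5 rose (Cd3g, Cd3d and Trac), where 10.9% of all genes tested were called higher. Of 5 Treg markers, Foxp3, the lineage factor, fell by 0.59 ± 0.09 on the log2 scale (SE, n = 2 per group, adjusted p = 0.000223), Ikzf2 fell by 0.79 ± 0.14, Icos rose by 0.61 ± 0.07, and Il2ra and Ctla4 did not pass the test. Their summed level was 2280 and 2610 CPM in Mock, against 2190 and 2400 CPM in FeSO4, and most of it was Il2ra (1390 and 1590 CPM in Mock, 1480 and 1550 CPM in FeSO4), so the overlap of the sums does not describe Foxp3 or Ikzf2. In a bulk culture, fewer cells of a type and less RNA per cell cannot be told apart. By intracellular staining, a measure of protein rather than mRNA, the study reports little effect of iron sulfate on Foxp3 induction in iTreg cells.

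Markers of other cells were uneven, with some near 0 and others well above it. The B cell gene Ms4a1 was at 0 outside Mock replicate 1, where it had 0.0246 CPM, while Ighm was at 165 and 159 CPM in Mock, against 245 and 275 CPM in FeSO4, and rose by 0.68 ± 0.07 (adjusted p = 3.74e-06). Cd79a and Cd79b were low and not called, with log2 fold changes of -0.13 and -0.53 (adjusted p = 0.814 and 0.547). The summed level of these 4 B cell markers, nearly all of it Ighm, was 169 and 162 CPM in Mock, against 247 and 277 CPM in FeSO4. The NK genes Ncr1 and Klrb1c were at 0 in all 4 libraries, while Klrk1, which T cells can also express, rose by 1.58 ± 0.38 from 0.714 and 0.765 CPM to 2.19 and 2.24 CPM (adjusted p = 0.00692). The fourth NK marker, Eomes, was at 0.936 and 1.05 CPM in Mock, against 1.23 and 0.513 CPM in FeSO4, and was not called. The sum of the 4, 1.65 to 1.82 CPM in Mock, against 2.75 to 3.41 CPM in FeSO4, thus differed through Klrk1. Of 8 myeloid markers, Lyz2 had 4.04 CPM in Mock replicate 1 and 0.191, 0 and 0 CPM in the others. Csf1r, Cd14 and Itgax had 0.172, 0.0985 and 0.0739 CPM in Mock replicate 1 and 0 elsewhere. Itgam, Flt3 and Adgre1 were not confined to that library, and Adgre1 was highest in FeSO4 replicate 2 (0.783 CPM). Cst3, which other cells also express, rose by 0.37 ± 0.07 (adjusted p = 0.00148). It made up most of the sum of the 8, which was 87.9 to 98.1 CPM in Mock, against 116 to 118 CPM in FeSO4. The CD8 genes Cd8a and Cd8b1 summed to 9.03 to 9.8 CPM in Mock, against 9.95 to 11 CPM in FeSO4, and neither was called. Cd8a alone was at 2.32 and 0.645 CPM in Mock, against 0.729 and 1.27 CPM in FeSO4. The erythroid gene Hba-a1 was at 19.6 to 24.5 CPM in Mock, against 32.5 to 37.5 CPM in FeSO4, and rose by 0.66 ± 0.12 (adjusted p = 0.000731). The part of these shifts in the receptor results was not tested.

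Iron-treated iTreg cultures had lower Cd27 and Tnfrsf25 mRNA, and no other receptor of the 9 passed the test. Cd27 fell by 39.3% and Tnfrsf25 fell by 27.2% in FeSO4. Tnfrsf4 (OX40) and Tnfrsf18 (GITR), the most abundant of the 9 per length, had log2 fold changes of -0.08 and -0.16 and were not called. Tnfrsf1a had the only positive fold change of any size, just outside the threshold. At an adjusted p under 0.05 (edgeR, Benjamini-Hochberg over all 13732 genes), 0 of the 9 were called higher, where 10.9% of all genes were, and 2 were called lower, where 9.17% of all genes were. Without adjustment, at p under 0.05, 1 was higher and 3 were lower, against 17.1% and 15.2% of all genes. The study's figure legends call genes at a p under 0.05 (DESeq2 Wald test) and a log2 fold change of 0.5 or more in size. With that threshold applied here to the unadjusted edgeR p-values, 0 were higher and 1 was lower, against 4.67% and 5.73% of all genes.

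**Figure D1:**
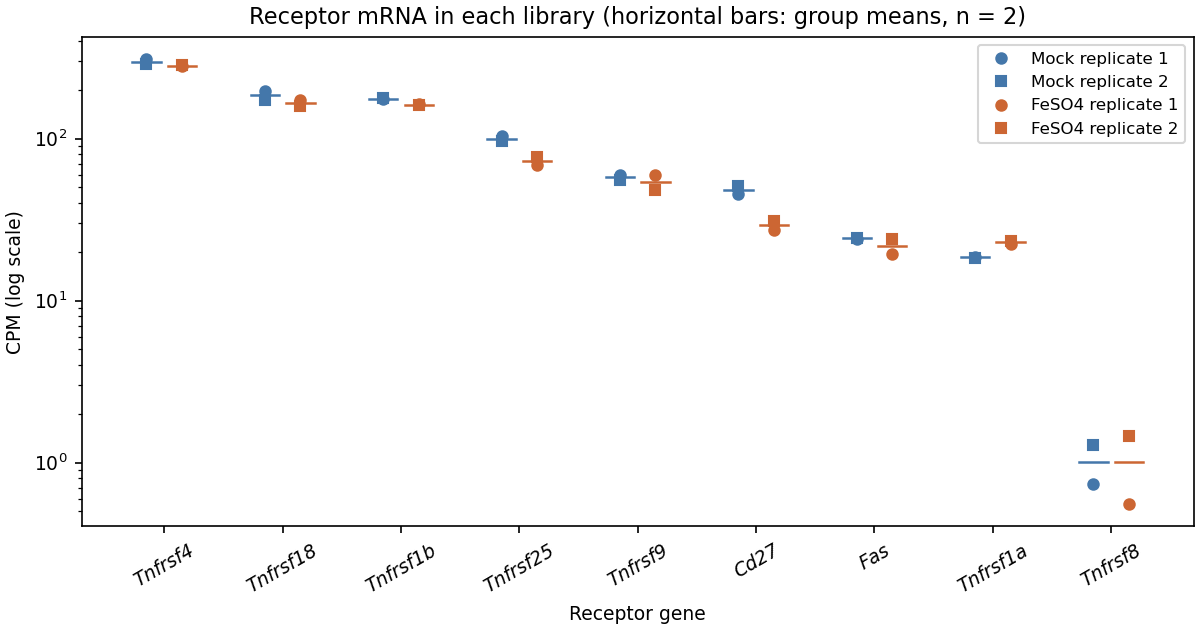
CPM of the 9 receptor genes in each library on a log axis, Mock in blue and FeSO4 in orange, with circles for replicate 1, squares for replicate 2 and horizontal bars for group means (n = 2). The FeSO4 points of Cd27 (27.2 and 31.1 CPM) and Tnfrsf25 (68.6 and 77.5 CPM) lie below both Mock points, and Tnfrsf8 lies near 1 CPM in both groups.

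Cd27 is a costimulatory receptor of naive and early activated T cells, and its ligand is CD70. Its level was 45.4 and 50.9 CPM in Mock replicates 1 and 2, and 27.2 and 31.1 CPM in FeSO4 replicates 1 and 2. Both FeSO4 libraries lay below both Mock libraries, and the gap between the groups was wider than the spread within either. The log2 fold change was -0.72 ± 0.10 (SE, 95% interval -0.93 to -0.51), with an adjusted p of 7.26e-05. Its share of the reads of all 9 receptors was 5.3% ± 0.63 in Mock and 3.59% ± 0.356 in FeSO4 (SD, n = 2 each). Over 8520 genes whose mean reached 10 CPM, the 3 whose profile over the 4 libraries was nearest to that of Cd27 were Gadd45g (a stress-inducible signalling gene), Zscan29 and Nrp1 (neuropilin 1, a marker of thymic Treg cells). Their root mean square distances in centred log2 CPM were 0.0194, 0.0225 and 0.0226, and their log2 fold changes were -0.73, -0.74 and -0.75.

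Tnfrsf25, the death domain receptor DR3, binds TL1A. It was measured at 104 and 97.2 CPM in Mock and at 68.6 and 77.5 CPM in FeSO4, so the groups did not overlap. It fell by 0.46 ± 0.08 on the log2 scale (SE, 95% interval of the fold change -0.62 to -0.29, adjusted p = 0.000601). Tnfrsf25 made up 11% ± 0.095 of the receptor reads in Mock and 8.99% ± 0.825 in FeSO4. The mean shares of Tnfrsf4 (32.8% in Mock, 34.8% in FeSO4) and Tnfrsf1a (2.03% and 2.83%) were higher, without overlap of the groups. The shares of the 9 are parts of one total, so a lower share of some receptors raises that of others. The mean level of Tnfrsf4 itself was 298 CPM in Mock and 282 CPM in FeSO4. All shares come from the same counts as the fold changes and are not separate support for them. For the shares of Cd27, Tnfrsf25, Tnfrsf4 and Tnfrsf1a the exact two-sided permutation test over libraries gave p = 0.333, the smallest possible here. Shares of Tnfrsf18, Tnfrsf9, Tnfrsf1b, Tnfrsf8 and Fas overlapped between the groups.

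Neither of the receptors of TNF itself was called. Tnfrsf1a, the widely expressed death domain receptor TNFR1, was at 18.6 and 18.4 CPM in Mock and at 22.4 and 23.5 CPM in FeSO4. The groups did not overlap, but the log2 fold change of 0.31 ± 0.11 (SE, 95% interval 0.08 to 0.54) had an adjusted p of 0.0529 and was not called. With the older form of the same edgeR test the adjusted p was 0.0469, and with the replicate number as a block it was 0.0367. Tnfrsf1a was thus called higher in 2 of 13 alternative settings in all. Tnfrsf1b, the TNFR2 of activated and regulatory T cells, was at 176 and 177 CPM in Mock and at 163 and 161 CPM in FeSO4. This small gap did not pass the test (log2 fold change -0.12 ± 0.06, adjusted p = 0.205).

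The share of reads that each gene of the pair held can be taken from the counts alone. Such shares are not corrected for exon length, which is 3.818 kilobases for Tnfrsf1b and 2.598 kilobases for Tnfrsf1a. They therefore compare libraries and do not give the balance of transcripts, and the same holds for the other shares of reads. Reads of Tnfrsf1b made up 90.4% (95% Wilson interval 89.8 to 91.1) and 90.6% (89.9 to 91.2) of the reads of both genes in Mock replicates 1 and 2. They made up 87.9% (87.1 to 88.7) and 87.2% (86.4 to 88) in FeSO4. Both FeSO4 shares were below both Mock shares, a difference of -2.9 percentage points, and the intervals, which cover counting error only, did not overlap between the groups. The exact two-sided permutation test over libraries gave p = 0.333, which is the smallest that 2 against 2 libraries can give. Tnfrsf4 held 61.7% ± 0.704 of the reads of Tnfrsf4 and Tnfrsf18 in Mock and 63% ± 1.52 in FeSO4 (SD, n = 2 each), and these shares overlapped between the groups (exact two-sided permutation p = 0.667). Whether the pairs differ from each other was not tested.

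**Figure D2:**
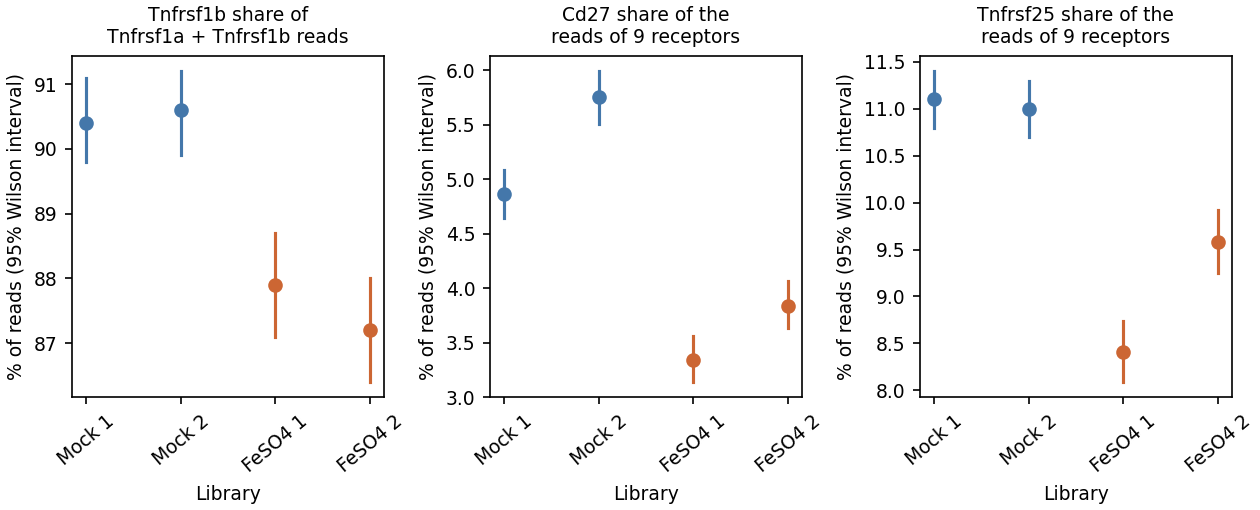
Share of reads, in %, in each library with its 95% Wilson interval (counting error only), for Tnfrsf1b among the reads of Tnfrsf1a and Tnfrsf1b (left), Cd27 among the reads of the 9 receptors (middle) and Tnfrsf25 among the same reads (right), each axis drawn over its own range. Mock libraries are blue and FeSO4 libraries orange, and in all 3 panels both FeSO4 libraries lie below both Mock libraries.

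The costimulatory receptors OX40, GITR and 4-1BB were not called. Tnfrsf4 (OX40) was at 310 and 287 CPM in Mock and at 281 and 284 CPM in FeSO4, with a log2 fold change of -0.08 ± 0.06 (adjusted p = 0.424). Tnfrsf18 (GITR) was at 196 and 174 CPM in Mock and at 173 and 159 CPM in FeSO4, with a log2 fold change of -0.16 ± 0.07 (adjusted p = 0.142). Tnfrsf18 was called lower in 3 of 13 alternative settings. Among them were the fit with the replicate number as a block (-0.16, adjusted p = 0.0476) and the fit without Mock replicate 2 (-0.24). For both genes the FeSO4 libraries lay just below the Mock libraries, and the gap between the nearest libraries of the groups was smaller than the spread within Mock. Tnfrsf9 (4-1BB), an activation-induced receptor, was at 59.8 and 55.6 CPM in Mock and at 59.6 and 48.2 CPM in FeSO4, so its groups overlapped (log2 fold change -0.10 ± 0.10, adjusted p = 0.507).

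Fas, the death receptor that removes activated T cells, was at 23.9 and 24.5 CPM in Mock and at 19.5 and 24.1 CPM in FeSO4. FeSO4 replicate 2 lay within the Mock range and FeSO4 replicate 1 below it (log2 fold change -0.15 ± 0.12, adjusted p = 0.41). Tnfrsf8 (CD30) had few reads, with 30 and 54 reads in Mock and 19 and 54 reads in FeSO4. Its log2 fold change of 0.01 ± 0.48 has a 95% interval of -1.02 to 1.03, and its libraries differed within each group.

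Counting every receptor, FeSO4 lay below both Mock libraries for 5 of the 9, where 29.4% of all genes tested did, and above both for 1 of the 9, where 30.1% of all genes did. The 5 were Cd27, Tnfrsf25, Tnfrsf18, Tnfrsf1b and Tnfrsf4, and the 1 was Tnfrsf1a. Tnfrsf9, Fas and Tnfrsf8 overlapped. The median log2 fold change was -0.12 over the 9, beside -0.00 over all genes. Summed over the 9 receptors, the level was 934 and 886 CPM in Mock, against 816 and 809 CPM in FeSO4, so the receptors took 0.0954% and 0.0907% of the gene counts in Mock and 0.0795% and 0.0794% in FeSO4.

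Levels can be compared between genes only per length, here as CPM per kilobase of exon. The order from highest to lowest was Tnfrsf4, Tnfrsf18, Tnfrsf1b, Tnfrsf25, Tnfrsf9, Cd27, Fas, Tnfrsf1a and Tnfrsf8, and it was the same in both groups. Mean levels ran from 218 CPM per kilobase for Tnfrsf4 and 122 for Tnfrsf18 down to 0.293 for Tnfrsf8 in Mock, and from 207 and 109 down to 0.291 in FeSO4. Tnfrsf1b stood next to Tnfrsf25 in Mock, at 46.1 and 46.3 against 45.6 and 42.7 CPM per kilobase, and further from it in FeSO4, at 42.8 and 42.2 against 30.1 and 34 CPM per kilobase. Cd27 kept its place between Tnfrsf9 and Fas. It overlapped Tnfrsf9 in Mock (19.5 and 21.9 against 22 and 20.4 CPM per kilobase) and Fas in FeSO4 (11.7 and 13.4 against 10.8 and 13.4 CPM per kilobase). All other neighbours in the order did not overlap within a group.

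T cells make some TNF superfamily ligands themselves. Of 17 ligand genes listed, which include ligands of receptors outside the 9, 16 were matched in the table and 13 were tested, of which 3 rose, 3 fell and 7 did not pass the test, with a median log2 fold change of 0.06. The shares of all genes called were 10.9% higher and 9.17% lower. Tnf, the ligand of TNFR1 and TNFR2, was at 110 and 98 CPM in Mock and at 62 and 52.5 CPM in FeSO4, and fell by 0.86 ± 0.09 on the log2 scale (adjusted p = 3.79e-06). Lta, which binds the same receptors, was at 422 and 411 CPM in Mock and at 425 and 353 CPM in FeSO4 and did not pass the test (adjusted p = 0.387). Thus 1 of the ligands of the TNFR1 and TNFR2 pair was lower in both FeSO4 libraries, and the other overlapped between groups.

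Tnfsf4 (OX40L) was low, at 8.94 and 5.47 CPM in Mock, against 3.03 and 3.16 CPM in FeSO4, and fell by 1.21 ± 0.26 on the log2 scale (adjusted p = 0.00332). This call was lost without Mock replicate 1, where the log2 fold change was -0.83 with an adjusted p of 0.0873. Fasl, the ligand of Fas, was at 1.72 and 1.89 CPM in Mock, against 3.03 and 3.75 CPM in FeSO4, and rose by 0.91 ± 0.29 (adjusted p = 0.0334). The Fasl call was lost whichever library was left out. Tnfsf8, the ligand of CD30, had levels of 112 and 114 CPM in Mock and of 99 and 96.9 CPM in FeSO4. It fell by 0.21 ± 0.07 (adjusted p = 0.0407), a call that was likewise lost whichever library was left out.

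For CD27 and 4-1BB the ligands were scarce. Cd70 was at 0.739 and 0.765 CPM in Mock, against 0.934 and 0.648 CPM in FeSO4 (log2 fold change 0.06 ± 0.47, adjusted p = 0.95). Tnfsf9 was at 4.06 and 3.49 CPM in Mock, against 4.14 and 3.83 CPM in FeSO4 (adjusted p = 0.859). Tnfsf15, the DR3 ligand TL1A, had no more than 5 reads in a library and was not tested, and Tnfsf18, the GITR ligand, had 0 reads in all 4 libraries, which allows up to 0.0875 CPM in any of them.

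Outside the partners of the 9 receptors, Cd40lg, through which helper T cells act on CD40, was at 23.4 and 22.6 CPM in Mock, against 35.7 and 33.5 CPM in FeSO4, and rose by 0.59 ± 0.10 (adjusted p = 0.000471). Tnfsf13b (BAFF, a B cell survival factor) rose by 1.05 ± 0.33 from 1.55 and 1.24 CPM to 2.33 and 3.43 CPM (adjusted p = 0.0323). The Tnfsf13b call was lost without either Mock library (each in turn) and without FeSO4 replicate 2.

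**Figure D3:**
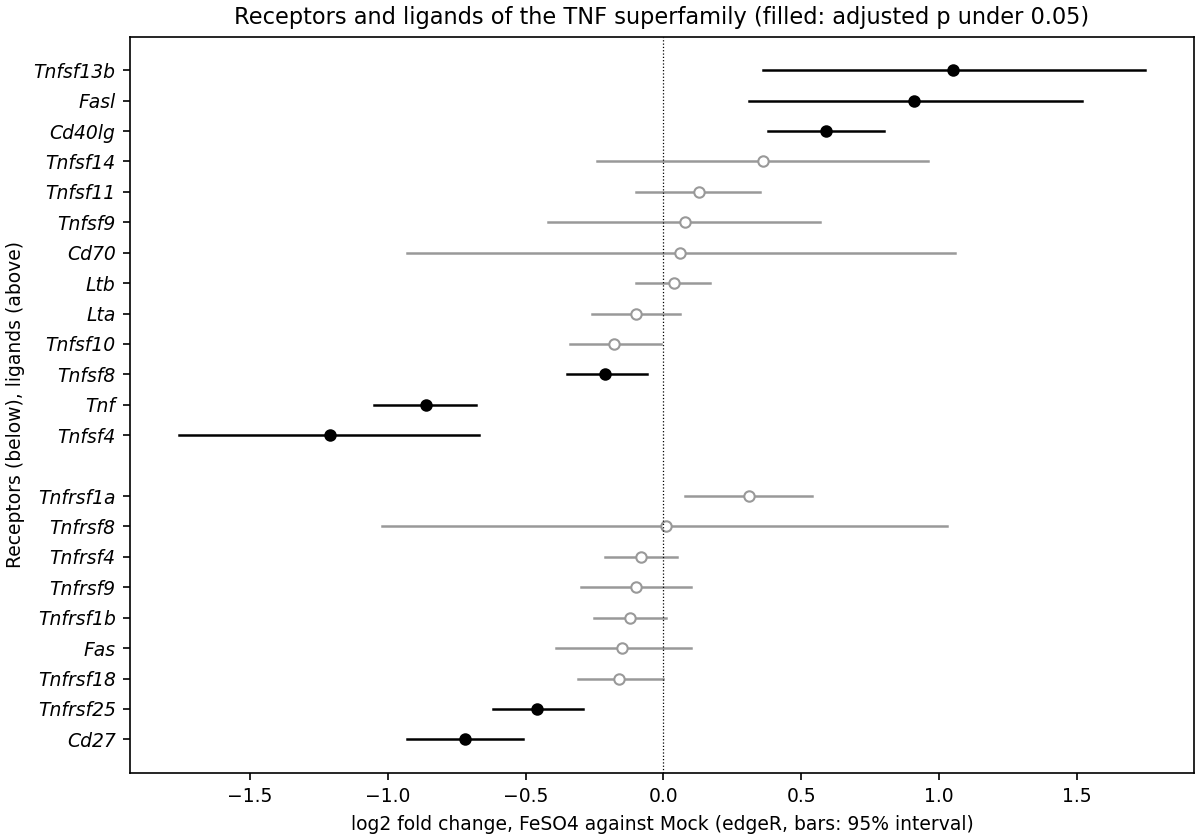
Log2 fold change of FeSO4 against Mock with its 95% interval (edgeR, 2 libraries per group) for the 9 receptors (lower block) and the 13 ligands tested (upper block), with filled black points at an adjusted p under 0.05. Among the receptors the filled points are Cd27 (-0.72) and Tnfrsf25 (-0.46), and among the ligands the lowest are Tnfsf4 (-1.21) and Tnf (-0.86).

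A further 19 receptors of the superfamily were listed, of which 13 were tested, 2 rose, 3 fell and 8 did not pass the test (median log2 fold change -0.01), where 10.9% and 9.17% of all genes were called higher and lower. Tnfrsf11a (RANK), at 6.43 and 7.31 CPM in Mock, against 1.43 and 1.35 CPM in FeSO4, fell by 2.31 ± 0.26 (adjusted p = 1.25e-05). Tnfrsf13c (BAFF receptor) fell by 1.27 ± 0.26 and Cd40 by 0.37 ± 0.07 (adjusted p = 0.00286 and 0.0023). RANK therefore had a larger fold change than any of the 9, and its level in Mock, 1.28 and 1.46 CPM per kilobase, was below that of every one of them but Tnfrsf8. Tnfrsf26 and Tnfrsf22, closely related genes whose reads can be split between copies, so that their counts are uncertain, rose by 0.38 ± 0.10 and 0.53 ± 0.16. The Tnfrsf22 call was lost without Mock replicate 1 or without FeSO4 replicate 2, and the Tnfrsf26 call without Mock replicate 2 or without FeSO4 replicate 2.

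Of 23 adaptor and regulator genes that sit below these receptors, 2 rose, 2 fell and 19 did not pass the test (median log2 fold change -0.05). Over all genes tested, 10.9% were called higher and 9.17% lower, so the counts of this list are near the background. Traf1, an adaptor induced on activation, rose by 0.37 ± 0.07 from 119 and 115 CPM to 149 and 153 CPM (adjusted p = 0.0009). Birc3 (cIAP2), which TRAF proteins recruit, rose by 0.37 ± 0.08 from 61.7 and 67.4 CPM to 85.2 and 81.4 CPM (adjusted p = 0.00282). Tnfaip3 (A20), a feedback inhibitor of NF-κB, was at 200 and 249 CPM in Mock, against 133 and 143 CPM in FeSO4, and fell by 0.70 ± 0.09 (adjusted p = 2.75e-05). Traf6, at 322 and 367 CPM in Mock, against 275 and 251 CPM in FeSO4, fell by 0.39 ± 0.07 (adjusted p = 0.00112). Of the TRAF adaptors called, Traf1 thus rose and Traf6 fell. The adaptors of the death domain branch, Tradd and Fadd, named after their values were seen, had log2 fold changes of -0.06 and -0.04 and were not called.

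Among 22 genes of the NF-κB pathway 3 rose, 6 fell and 13 did not pass the test (median log2 fold change -0.04), beside 10.9% of all genes called higher and 9.17% called lower. Nfkbia (IκBα), the inhibitor that NF-κB itself induces, was at 771 and 769 CPM in Mock, against 473 and 472 CPM in FeSO4, and fell by 0.71 ± 0.06 (adjusted p = 3.38e-07). Nfkbiz fell by 0.89 ± 0.10, from 97.1 and 113 CPM to 49.4 and 63.8 CPM, and Cd83 fell by 0.70 ± 0.11, from 34.5 and 34.1 CPM to 23.7 and 18.6 CPM. Ikbkb, the kinase subunit of the canonical pathway, fell by 0.29 ± 0.06, whereas Relb, a subunit of the non-canonical pathway, rose by 0.39 ± 0.07 from 72.2 and 68.1 CPM to 91.7 and 92.7 CPM.

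The other 4 calls, named after their values were seen, were Nfkbid (-0.38) and Rel (-0.34) lower and Bcl3 (0.26) and Nfkb2 (0.23) higher. Nfkb2 was called in only 4 of 13 alternative settings and Bcl3 in 6 of 13. The Nfkb2 call was lost without either Mock library or FeSO4 replicate 1, the Bcl3 call without either Mock library or FeSO4 replicate 2, and the Rel call without FeSO4 replicate 1.

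**Figure D4:**
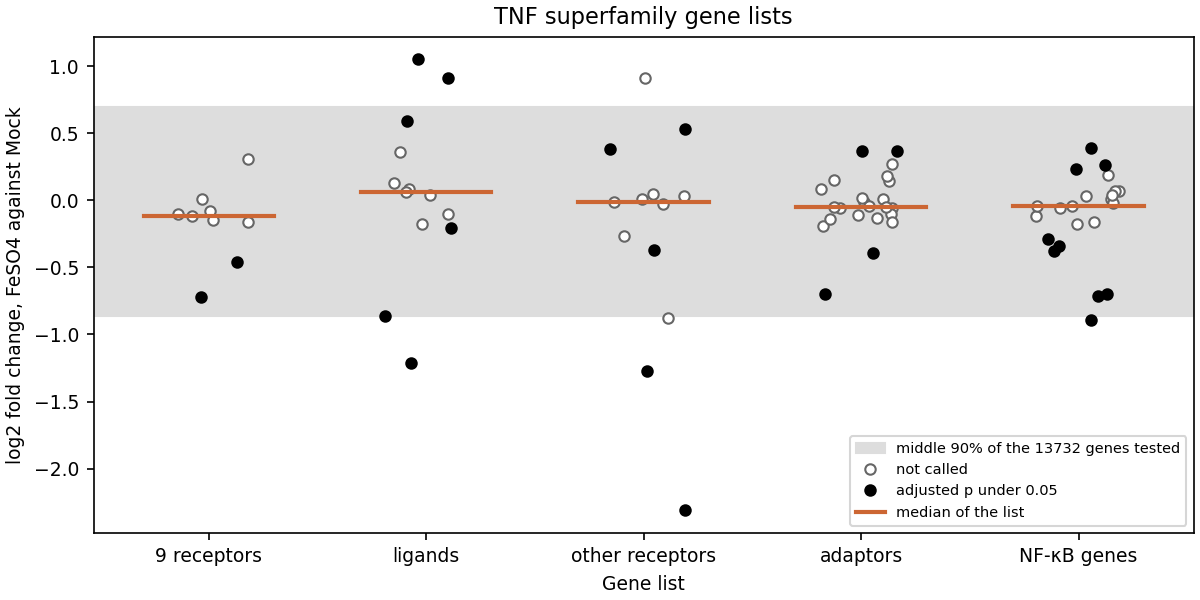
Log2 fold change of FeSO4 against Mock for each tested gene of 5 lists (9 receptors, 13 ligands, 13 other receptors, 23 adaptors and 22 NF-κB genes), with filled points at an adjusted p under 0.05, orange bars for list medians and a grey band from the 5th to the 95th percentile of all 13732 genes (-0.86 to 0.69). All 9 receptors lie inside the band, and the lowest point of all is Tnfrsf11a at -2.31.

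The receptor fold changes were recomputed under 13 alternative settings of scaling, filter, test and samples. Cd27 (-0.82 to -0.63) and Tnfrsf25 (-0.55 to -0.37) were called lower in all 13. Tnfrsf18 was called lower in 3 of the 13, Tnfrsf1a was called higher in 2 of the 13, and Tnfrsf1b was called lower in 1, with scaling by library size only. Tnfrsf9 changed sign, to 0.05, without FeSO4 replicate 2, and Tnfrsf8 changed sign in 8 of the 13.

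**Figure D5:**
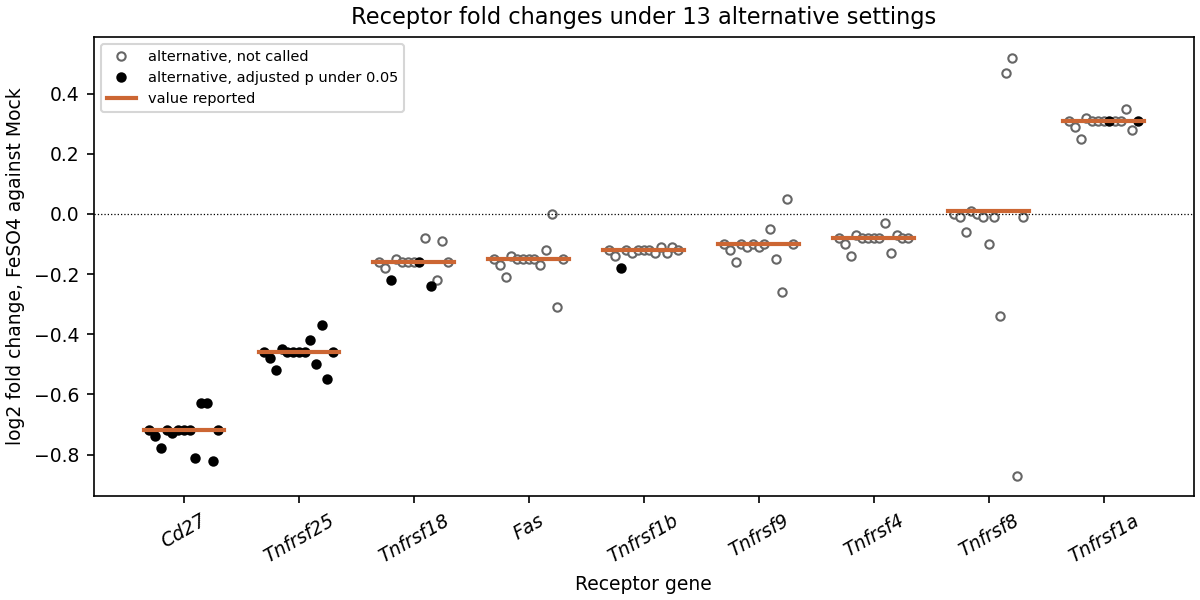
Log2 fold change of each receptor, FeSO4 against Mock, under 13 alternative settings (points, filled at an adjusted p under 0.05) beside the value reported (orange bar). Every point of Cd27 and Tnfrsf25 is filled and below 0, and the points of Tnfrsf8 spread from -0.87 to 0.52.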

How the data were processed

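RNA-seq of 4 iTreg libraries (2 Mock, 2 FeSO4, grouped by the labels) was analysed. The authors deposited raw read counts per Ensembl gene, not normalized. The submitters' processing notes list Trim Galore 0.6.7, STAR 2.7.9a, featureCounts and mm10, whereas the study's methods name mm9, STAR and DESeq, and the table ends with 5 rows of unassigned reads in the form htseq-count writes. The counter, annotation and strand setting are therefore not settled. The unassigned rows (no feature 4.36 to 6.03% of a library, ambiguous 3.78 to 3.91%, low alignment quality 0.802 to 0.988%, not aligned 1.8 to 2.31%, alignment not unique 4.27 to 4.62%) were left out, so genes with near-identical copies can be under-counted.

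Counts were analysed in R 4.3.3 with edgeR 4.0.16: filterByExpr with the group (13732 genes, 99.95% of counts), TMM scaling, and the quasi-likelihood F test between FeSO4 and Mock, adjusted by Benjamini-Hochberg across the genes tested. The design named this test but not its form. A first fit used the older form, the default of the installed version, and called Tnfrsf1a higher. The newer form was adopted after that result had been seen, because it matches the processing used for the series as a whole, and the older form is given as an alternative. In all, 8 settings of the edgeR fit (library sizes, dispersion step, filter, form, robust estimation) were compared before this choice. Tnfrsf1a was called in 1 of the 8, with the older form, and its adjusted p ranged from 0.0469 to 0.117. The older form calls 1455 genes higher and 1221 lower, against 1491 and 1259.

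CPM values use TMM-scaled library sizes. Exon lengths and overlaps come from GENCODE M1 (mm9) and serve only for levels per kilobase, so these depend on gene models that may differ from those counted. Symbols were matched by Ensembl ID (32799 of 47729 genes). Replicate libraries differed by more than sampling noise (chi-square per degree of freedom 8.85 for Mock, 7.25 for FeSO4). The labels do not say that libraries came from separate animals, and the methods speak of 2 pairs from 2 experiments without saying which libraries form a pair, so p-values measure the spread between these libraries only. Intervals for shares are 95% Wilson intervals. The profile distance used log2(CPM + 0.25).

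Members, lists and tests were chosen with earlier results of these data known. Named genes are the 9 receptors, their ligands, up to 5 called genes with the smallest p in each further list, the markers, and the 3 genes nearest in profile to the largest called fall. Tradd, Fadd, Nfkbid, Rel, Bcl3 and Nfkb2 were named outside this rule, after their values were seen. No receptor was called higher, so no set was drawn for a rise. Tnfsf12 and Hbb-bt were not matched to a row and are not analysed here, and 1 B cell marker of the design is not reported here. The 13 alternative settings were RLE size factors, upper quartile scaling, library size only, no filter, at least 10 counts in every library, DESeq2 1.42.0, limma-voom 3.58.1, a replicate block, leaving out each library, and the older form of the test. The study's threshold was applied to the reported fit and is not among the 13. Under it Tnfrsf25 (-0.46) was not called. The script was tested on simulated data.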

Additional observations from a re-analysis of the deposited data

How the results depend on the processing

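Of the 117 receptor values recomputed over 13 settings, 102 kept their direction and side of the threshold, 6 became significant, 9 changed sign and 0 lost significance. The number of receptors called higher was 0, and it became 1 (Tnfrsf1a at 0.31) with the replicate block (adjusted p = 0.0367) and with the older form of the test (0.0469, an alternative chosen after seeing the data, with library sizes taken before or after the filter). The other forms of the edgeR fit that were compared left 0 higher and 2 lower, with Tnfrsf1a at an adjusted p of 0.0507 with robust estimation. The number called lower was 2, and it became 4 with library size only, where Tnfrsf18 (-0.22) and Tnfrsf1b (-0.18, adjusted p = 0.0465) were added, and 1 (Cd27) under the study's threshold. Library size only moved the median of all genes to -0.0651 and the split of calls over all genes to 986 higher and 1809 lower, from 1491 and 1259. The fits without a low-count filter (524 and 304) and without FeSO4 replicate 1 (893 and 710) also moved these counts by over 1.5 times, and the replicate block gave 1846 and 1579. With one library left out, Tnfrsf18 ranged from -0.24 to -0.08, Tnfrsf4 from -0.13 to -0.03, Fas from -0.31 (without FeSO4 replicate 2) to -0.00 (without FeSO4 replicate 1), Tnfrsf9 from -0.26 to 0.05 and Tnfrsf8 from -0.87 to 0.52. The lone library of a group was then assumed to vary like the other group. Tnfrsf8 was -0.01 with upper quartile scaling, with DESeq2, with the replicate block and with the older form of the test, -0.06 with library size only and -0.10 with limma-voom. It had 19 to 54 reads per library. The cause of these changes was not tested.

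The methods describe the samples as 2 pairs, one from each of 2 experiments, but the replicate numbers could not be shown to mark those pairs. Deviations of same-numbered libraries from their group means had a correlation of 0.0491 over 13732 genes, and the labels do not tie a number to an experiment. The fit with the replicate block called Tnfrsf1a higher and Tnfrsf18 (-0.16, adjusted p = 0.0476) lower, which made 3 receptors lower, and 3 adaptors higher and 3 lower.

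The counts for the further lists moved as follows. Without a low-count filter, 1 ligand rose and 1 fell (from 3 and 3), and 0 other receptors rose (from 2). In the same setting 1 adaptor rose and 1 fell (from 2 and 2), and 1 NF-κB gene rose and 4 fell (from 3 and 6). The Rel and Nfkbid calls were among those lost there. With DESeq2, 1 ligand and 1 other receptor rose. With library size only, 1 other receptor and 1 NF-κB gene rose, and upper quartile scaling also left 1 NF-κB gene. With one library left out, ligands called higher ranged from 1 to 2 and lower from 1 to 2, other receptors called higher from 0 to 2, adaptors higher from 2 to 3 and lower from 2 to 3, NF-κB genes higher from 1 to 2 and lower from 5 to 6, and receptors lower from 2 to 3.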
